A study of Mus musculus with 8 samples.

Results

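The solute carrier genes are the genes whose symbol starts with Slc and a family number. They were read on two-colour arrays in nephron progenitor cells of the mouse kidney with and without floxed Hdac1 and Hdac2 alleles. The accession of each probe was matched to its gene symbol, which gave 373 Slc symbols with a probe out of 384 in the annotation. A gene was kept when the scanner software called its Cy5 signal well above background for 3 or more of the 4 arrays in 1 group, and the brightest Cy5 probe stood for it. This left 301 solute carrier genes from 51 families, of 22662 genes tested in all, 14989 of them with a symbol. Of the 301, 267 passed in both groups, 28 in the wildtype group alone and 6 in the mutant group alone. The symbol also takes in 5 genes that are not carriers, among them Slc9a3r1 and Slc9a3r2, which encode scaffold proteins of the brush border.

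The mutant group was Six2CreEGFP+; HDAC1&2 f/f and the wildtype group Six2CreEGFP+; HDAC1&2 +/+, both on the C57BL/6 strain at embryonic day 15.5. Both groups carried the transgene, in which Six2 regulatory sequence drives Cre fused to a green fluorescent protein, so recombination is limited to cells that are or were Six2-positive. Kidney cells were sorted for that fluorescence and pooled, with 4 pools a group and 0.5 µg of total RNA for each labelling. Cy5 carried the pool and Cy3 carried RNA of wildtype pool 1 on all 8 arrays, so each value is a log2 ratio over that RNA and the wildtype 1 array compares 1 RNA with itself. Pools 3 and 4 of a group differed by less than other pairs (median absolute deviation of 0.0896 between the mutant pools and 0.0838 between the wildtype pools, against 0.163 to 0.595 for the other Cy5 pairs) and were averaged, which left 3 mutant and 3 wildtype samples. Nothing in the labels says that the pools came from separate litters, so p-values measure the spread between these pools.

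Solute carriers are membrane proteins that move sugars, amino acids, ions, metals, nucleotides and drugs across the plasma membrane and the membranes of organelles. Many are needed in every cell, such as the carriers of the inner mitochondrial membrane and of the Golgi. Others are switched on as a nephron matures: the proximal tubule recovers glucose, phosphate and amino acids through apical sodium-coupled carriers and secretes organic anions and cations, while the loop of Henle and the distal segments reabsorb salt. Nephron progenitors of the cap mesenchyme give rise to these segments, and the deacetylases Hdac1 and Hdac2 remove acetyl groups from histones as parts of co-repressor complexes.

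The arrays and the labels were looked at first. Of 55681 probes, 28150 to 33982 had a Cy5 signal well above background on 7 arrays and 48627 on the wildtype 2 array, and 2045 of its spots were set aside as outliers against 183 to 247 on the others. The brightness filter was therefore easier to pass in the wildtype group. For that reason the 28 members passing there alone, against 6 in the mutant group, are not read as a loss. The mutant 1 array differed most from the rest in Cy5, with median absolute deviations of 0.442 to 0.595. The Hdac1 probe had log2 ratios of -0.07, -0.14 and -0.20 in mutant samples and 0.20, 0.14 and 0.15 in wildtype samples, so the groups did not overlap. For Hdac2 the values were -0.54, -0.04 and -0.28 in mutant samples, and -0.07, -0.18 and -0.21 in wildtype samples, which overlapped. Here and below the 3 values of a group are those of pool 1, of pool 2 and of the mean of pools 3 and 4. Whether these probes lie in the deleted exons was not analysed here. The sorted cell's own marker Six2 was bright in both groups, with a mutant minus wildtype difference of -0.13 ± 0.14 (SE of the limma fit, n = 3 each).

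Stretches before the gene starts are shown for the carriers that the results below turn on: the proximal tubule carriers Slc34a1, Slc23a3 and Slc22a6 and the zinc carrier Slc39a5, which were lower in mutant samples, Slc29a4 and Slc32a1, which were higher, and the mitochondrial phosphate carrier Slc25a3 as a housekeeping gene. Each is the 250 bases before the start of the gene, from RefSeq on GRCm38.p6, written 5′ to 3′ on the gene's strand. They lie at chr13:55399398-55399647, plus strand, for Slc34a1, at chr1:75133891-75134140, minus strand, for Slc23a3, at chr19:8617746-8617995, plus strand, for Slc22a6, and at chr10:128400467-128400716, minus strand, for Slc39a5. The windows of the other genes lie at chr5:142701851-142702100, plus strand, for Slc29a4, at chr2:158610508-158610757, plus strand, for Slc32a1, and at chr10:91123968-91124217, minus strand, for Slc25a3. Capitals mark each CG dinucleotide.
Slc34a1: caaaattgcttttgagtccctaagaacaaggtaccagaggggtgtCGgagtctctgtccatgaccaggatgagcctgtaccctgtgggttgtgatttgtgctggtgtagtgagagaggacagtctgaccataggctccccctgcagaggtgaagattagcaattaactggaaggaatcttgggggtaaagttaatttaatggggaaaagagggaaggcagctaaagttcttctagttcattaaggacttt
Slc23a3: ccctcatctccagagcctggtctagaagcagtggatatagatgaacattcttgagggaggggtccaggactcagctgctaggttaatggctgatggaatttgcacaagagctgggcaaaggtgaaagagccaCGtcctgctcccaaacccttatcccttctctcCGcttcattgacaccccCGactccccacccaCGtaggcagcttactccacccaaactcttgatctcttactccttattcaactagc
Slc22a6: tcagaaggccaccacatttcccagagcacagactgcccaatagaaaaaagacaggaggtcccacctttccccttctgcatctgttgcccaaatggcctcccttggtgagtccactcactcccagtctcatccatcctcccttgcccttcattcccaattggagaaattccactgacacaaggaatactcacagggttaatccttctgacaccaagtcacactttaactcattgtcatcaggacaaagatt
Slc39a5: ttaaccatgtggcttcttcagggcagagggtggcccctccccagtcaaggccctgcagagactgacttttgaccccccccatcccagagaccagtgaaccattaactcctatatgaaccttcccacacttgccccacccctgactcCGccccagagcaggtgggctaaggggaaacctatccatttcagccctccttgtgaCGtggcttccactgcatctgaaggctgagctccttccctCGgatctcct
Slc29a4: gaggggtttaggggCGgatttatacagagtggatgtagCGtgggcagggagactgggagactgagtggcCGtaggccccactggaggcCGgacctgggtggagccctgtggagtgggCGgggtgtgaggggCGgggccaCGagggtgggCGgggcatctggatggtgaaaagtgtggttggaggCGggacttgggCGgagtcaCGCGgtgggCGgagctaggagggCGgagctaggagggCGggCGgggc
Slc32a1: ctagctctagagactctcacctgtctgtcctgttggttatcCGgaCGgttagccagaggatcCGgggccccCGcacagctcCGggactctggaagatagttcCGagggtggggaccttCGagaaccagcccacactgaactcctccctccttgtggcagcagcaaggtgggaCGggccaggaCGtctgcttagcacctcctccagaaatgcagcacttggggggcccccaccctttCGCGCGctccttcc
Slc25a3: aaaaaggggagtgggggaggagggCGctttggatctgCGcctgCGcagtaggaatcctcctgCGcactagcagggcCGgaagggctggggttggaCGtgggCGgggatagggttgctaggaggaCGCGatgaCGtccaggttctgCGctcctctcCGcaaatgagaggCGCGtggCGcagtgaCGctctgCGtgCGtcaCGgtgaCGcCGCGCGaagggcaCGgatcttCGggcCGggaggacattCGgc
The first 4 windows hold 0 to 4 CG dinucleotides. The windows of Slc29a4, Slc32a1 and Slc25a3 hold 16, 12 and 27 CG dinucleotides. These windows do not stand for all members: that of Slc37a4, also lower, holds 14, and that of Slc38a5, also higher, holds 8.

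Across the whole family, no solute carrier gene passed an adjusted p of 0.05 in limma over all genes, either without the pool number as a block or with it. The background was low too: 10 genes of 22662 (0.0441%) passed without the block and 34 (0.15%) with it. At an unadjusted p under 0.05, 20 solute carriers (6.64%) were lower in mutant samples and 21 (6.98%) higher, where the background over all genes was 2.78% lower and 4.46% higher. With the block, in which each mutant sample is set against the wildtype sample of its number, 40 were lower and 34 higher, against a background of 4.88% and 7.77%. Since 28 of the 301 passed the brightness filter in the wildtype group alone, the 267 above background in both groups are given as well: 12 (4.49%) were lower and 20 (7.49%) higher without the block, and 24 lower and 33 higher with it. The median difference of the 301 was 0.03 and that of all genes 0.00. The genes were then sorted into lists by role.

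Carriers of the proximal tubule were the list with the lowest values. Of 50 written, 41 were measured, and 36 of these had a negative difference and 5 a positive one, with a median of -0.49 (range -1.56 to 0.59). That median was -0.27 without the mean of wildtype pools 3 and 4 and -1.24 with Agilent's processed ratios. Because 16 of the 41 passed the brightness filter in the wildtype group alone, the 25 that passed in both groups are given too: their median was -0.50, with 21 negative and 4 positive, and 6 lower and 2 higher at an unadjusted p under 0.05 (15 and 3 with the block). Over all 41, 13 were lower and 2 higher at that level, and 26 lower and 3 higher with the block. The background over all genes was 2.78% lower and 4.46% higher, and with the block 4.88% and 7.77%. The groups did not overlap for 10 of the 41 that were lower and for 1 that was higher, where the background was 5.95% lower and 8.72% higher. All 3 pairs of pools were lower for 27 of the 41 and higher for 3, against a background of 17.4% lower and 23% higher. Among the 25 that passed in both groups, the groups did not overlap for 5 lower and 1 higher. All 3 pairs were lower for 17 of these 25 and higher for 3.

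Pool 2 and the mean of pools 3 and 4 pulled this list in opposite directions in both groups. The list median was -0.45, -0.67 and -0.26 in mutant samples, against -0.01, -0.58 and 0.41 in wildtype samples. Each mutant sample lay below the wildtype sample of its own number, but the wildtype pool 2 lay below 2 of the 3 mutant samples, so the groups overlapped. The median of the pairwise differences was -0.40, -0.26 and -0.79. For the 25 that passed in both groups, the medians of the mutant samples were -0.45, -0.76 and -0.30. Those of the wildtype samples were -0.01, -0.61 and 0.36, and the pairwise differences had medians of -0.44, -0.30 and -0.79. The count of 13 lower at an unadjusted p rested on single samples, since it was 30 without wildtype pool 2 and 7 without the mean of wildtype pools 3 and 4.

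**Figure D1:**
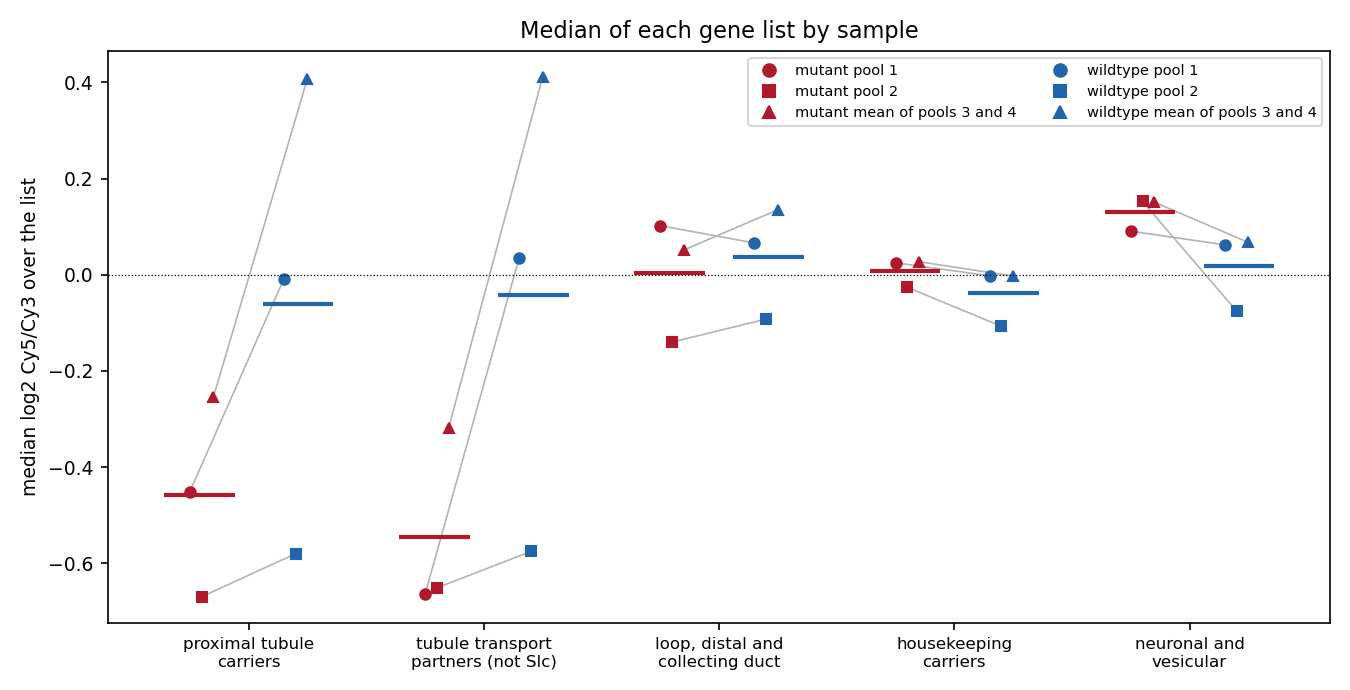
The median log2 ratio of Cy5 over Cy3 across the genes of a list is plotted for each sample, mutant in red and wildtype in blue. Symbols give the pool number, grey lines join samples of the same number and bars are group means. For the proximal tubule carriers and for tubule genes outside the family each mutant symbol lies below its wildtype partner. Pool 2 is the lowest sample of both groups for the carriers. For the tubule genes outside the family it is lowest in the wildtype group alone, and mutant pools 1 and 2 lie together (-0.66 and -0.65). The housekeeping carriers stay near 0.

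The largest single difference of the family lay in a proximal tubule carrier. Slc34a1, the sodium-phosphate cotransporter NaPi-IIa, had log2 ratios of -1.93, -3.12 and -0.78 in mutant samples, against 0.11, -2.54 and 1.27 in wildtype samples. Pool 2 was lowest in both groups, and the groups overlapped, since wildtype pool 2 lay below mutant pool 1 and below the mean of mutant pools 3 and 4. The difference was -1.56 ± 0.99 (SE), with an adjusted p of 0.80 in limma and 0.17 with the block. Another probe of Slc34a1 had a difference of -0.82. Without wildtype pool 2 the difference was -2.64, and without the mean of wildtype pools 3 and 4 it was -0.73, with no call in either case.

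Slc23a3, a relative of the ascorbate carriers whose own substrate is less well known, separated the groups. Its values were -1.01, -1.96 and -0.71 in mutant samples, and -0.22, -0.21 and 0.68 in wildtype samples. All mutant samples lay below all wildtype samples, and unlike Slc34a1 the wildtype pool 2 stood with wildtype pool 1. The difference was -1.31 ± 0.37 (SE), with an adjusted p of 0.45 in limma and 0.089 with the block.

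Sugar carriers also had negative differences. Slc5a2, the apical glucose cotransporter SGLT2, had values of -0.36, -0.87 and -0.30 in mutant samples, and -0.15, -0.79 and 0.74 in wildtype samples, which overlapped (difference -0.44 ± 0.37, SE). Its negative difference rested on 1 sample, since it was -0.04 without the mean of wildtype pools 3 and 4. Slc2a2, the basolateral glucose carrier GLUT2, which was singled out after its values were seen, had -1.41, -2.37 and -0.73 in mutant samples, and -0.10, -1.64 and 0.39 in wildtype samples. Each pair of pools was lower, although wildtype pool 2 lay below 2 of the 3 mutant samples. Slc37a4, the glucose-6-phosphate carrier of the endoplasmic reticulum used in gluconeogenesis, had -0.56, -1.01 and -0.65 in mutant samples and -0.07, -0.13 and -0.01 in wildtype samples. All mutant samples lay below all wildtype samples, which were within 0.13 of the Cy3 RNA, with a difference of -0.67 ± 0.13 (SE) and an adjusted p of 0.27 in limma. Slc5a1 (SGLT1) was not well above background on any mutant array.

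Carriers of organic anions, cations and urate were measured as Slc22a6, Slc47a1 and Slc22a12. Slc22a6, the basolateral organic anion transporter OAT1, had values of -0.89, -2.24 and -0.74 in mutant samples, and 0.12, -1.58 and 0.98 in wildtype samples, again with pool 2 lowest in both groups. Its difference was -1.13 ± 0.68 (SE), with an adjusted p of 0.79 in limma, and the groups overlapped. It was -1.84 without wildtype pool 2 and -0.56 without the mean of wildtype pools 3 and 4. Slc47a1 and Slc22a12 were singled out after their values were seen. Slc47a1, the apical cation and proton antiporter MATE1, had -0.83, -1.14 and -0.49 in mutant samples, against -0.04, 0.05 and 0.33 in wildtype samples, with no overlap. Slc22a12, the urate carrier URAT1, had -0.87, -1.30 and -0.50 in mutant samples, against 0.13, -0.60 and 0.57 in wildtype samples, with wildtype pool 2 inside the mutant range. The Slc22a12 probe was above background on 2 of 4 mutant and 4 of 4 wildtype arrays, so it passed the filter through the wildtype group alone. Their differences were -0.94 ± 0.18 and -0.92 ± 0.32 (SE).

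Amino acid carriers of the proximal tubule did not all lie on the same side. Beside the genes below, Slc6a18, Slc7a9, Slc1a1, Slc3a1, Slc6a19 and Slc38a3 had differences of -0.87, -0.73, -0.33, -0.25, -0.23 and -0.01, and Slc6a20a had 0.29. These too were singled out after their values were seen. Slc6a13, a carrier of GABA and related compounds in kidney and liver, had -0.60, -0.94 and -0.57 in mutant samples, against -0.02, -0.65 and 0.41 in wildtype samples, and wildtype pool 2 overlapped the mutant range (difference -0.62 ± 0.26, SE, and -0.37 without the mean of wildtype pools 3 and 4). By contrast Slc7a7, the basolateral carrier y+LAT1 of cationic amino acids, had 0.68, 0.36 and 0.19 in mutant samples, against 0.12, -0.16 and -0.02 in wildtype samples. All mutant samples lay above all wildtype samples, with a difference of 0.43 ± 0.15 (SE) and an adjusted p of 0.58 in limma. Slc7a8, the basolateral carrier LAT2, singled out after its values were seen, had a difference of 0.59 ± 0.24 (SE), and its groups overlapped.

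**Figure D2:**
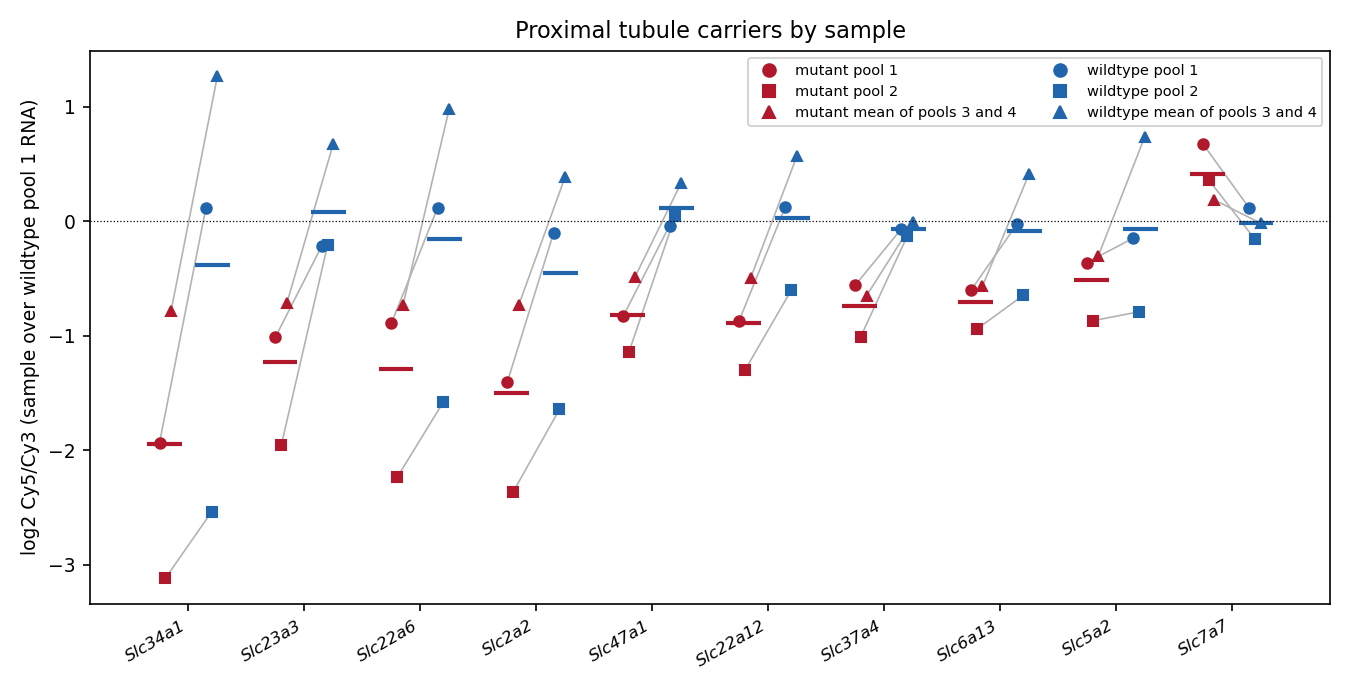
Log2 ratios of Cy5 over Cy3 are plotted for 10 proximal tubule carriers in every sample, mutant (red) left of wildtype (blue). Symbols give the pool number, grey lines join samples of the same number and bars are group means. Slc23a3, Slc47a1 and Slc37a4 separate the groups downward and Slc7a7 upward, while wildtype pool 2 reaches into the mutant range for Slc34a1, Slc22a6, Slc2a2, Slc22a12, Slc6a13 and Slc5a2.

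A further set passed through the wildtype group alone, with a probe not well above background on any mutant array. A lower mutant level is built into that choice, so the folds below are a description and no evidence of a decrease. Each fold sets the mean Cy5 level of the wildtype arrays against a floor for the mutant arrays. The floor of an array is the probe's own level or, if higher, the lowest level of any probe called well above background there. In this state were 6 proximal tubule carriers. Slc22a19, an organic anion carrier of the rodent kidney, had a fold of 1.49, and the bile acid carrier subunits Slc51a and Slc51b had 1.37 and 1.16. Slc23a1, an ascorbate carrier, Slc13a1, a sulfate carrier, and Slc5a1 had folds of 1.28, 1.14 and 1.12. Adjusted p-values of the 6 in limma ran from 0.47 to 0.82. Outside the list, the nucleoside carrier Slc28a2 and the amino acid carriers Slc7a12 and Slc7a13 were dim on every mutant array, with folds of 2.29, 1.07 and 1.15. For Slc28a2 the ratio fit gave a difference of only 0.02, so the fold of its Cy5 level was not matched by its ratio to Cy3. These folds rest on Cy5 levels and not on ratios to the Cy3 RNA, and the bright wildtype 2 array enters them. On the list, Slc9a3, Slc5a12, Slc6a20b and the family 22 members Slc22a7, Slc22a22, Slc22a26, Slc22a27 and Slc22a29 had a probe that did not pass in either group.

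Genes of the tubule outside the family had low values in the same samples. Of 30 tubule transport partners (among them endocytic receptors and ATPase and channel subunits), 28 were measured and 24 had a negative difference, with a median of -0.68. The list median was -0.66, -0.65 and -0.32 in mutant samples, and 0.03, -0.58 and 0.41 in wildtype samples, with the mean of wildtype pools 3 and 4 highest and wildtype pool 2 inside the mutant range, as for the carriers. Hnf4a, a nuclear receptor that activates proximal tubule genes, had -1.25, -3.17 and -0.91 in mutant samples, and -0.11, -1.01 and 0.31 in wildtype samples. Pdzk1, a scaffold that binds apical carriers, had a difference of -1.46 ± 0.79 (SE). With the block 3 of these 28 genes passed an adjusted p of 0.05 in limma, Pdzk1 among them (adjusted p 0.031), against 0.15% of all genes. Without it 0 passed, with 8 lower at an unadjusted p under 0.05, against 2.78% of all genes. In sorted pools a smaller share of tubule cells and less RNA per tubule cell cannot be told apart, and the part of such cells in the carriers' differences was not tested.

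Markers of other cells were higher or near 0, apart from those of the nephron progenitors. The ureteric bud list had a median difference of 0.26 (10 of 10 measured, per-sample medians from -0.10 to 0.36 in mutant samples and -0.30 to -0.03 in wildtype samples). The interstitial stroma list had 0.24 (10 of 10, 0.01 to 0.47 in mutant samples and -0.10 to 0.14 in wildtype samples), and the endothelium list 0.19 (10 of 10, 0.00 to 0.32 in mutant samples and -0.22 to 0.03 in wildtype samples). Erythroid and macrophage markers had medians of 0.05 and 0.04 (9 of 10 each). The nephron progenitor list had -0.30 (12 of 12, -0.37 to 0.05 in mutant samples and -0.01 to 0.22 in wildtype samples), with 10 negative differences. Without the block 1 of its genes, Cited1, passed the test (difference -2.72 ± 0.13, SE, adjusted p 0.0028 in limma), against 0.0441% of all genes. With the block 2 passed, Cited1 and Meox2 (difference -1.92, adjusted p 0.031 in limma), against 0.15% of all genes. The part of these cells in the carriers' values was not tested.

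Carriers of the loop of Henle, the distal tubule and the collecting duct did not share 1 direction. Of 14 written, 12 were measured, with 6 negative and 6 positive differences and a median of 0.03 (-0.12 when centred on spike-ins). The 8 of them above background in both groups had 2 negative and 6 positive differences and a median of 0.14. Slc12a1, the salt carrier NKCC2 of the thick ascending limb, had -1.39, -1.40 and -0.78 in mutant samples, and 0.02, -1.23 and 0.91 in wildtype samples. Wildtype pool 2 again lay inside the mutant range, and the difference was -1.09 ± 0.50 (SE, adjusted p 0.73 in limma). It was -1.66 without wildtype pool 2 and -0.59 without the mean of wildtype pools 3 and 4. Its probe was above background on 2 of 4 mutant and 3 of 4 wildtype arrays. The thiazide-sensitive carrier Slc12a3 and the exchanger Slc9a4 did not pass the brightness filter.

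Slc4a11 was the member of this list that lay highest. Slc4a11, a member of the bicarbonate carrier family found in the thin descending limb, had 0.87, 0.69 and 1.09 in mutant samples, against 0.01, -0.07 and 0.19 in wildtype samples. Every mutant sample lay above every wildtype sample by a wide gap, with a difference of 0.84 ± 0.13 (SE). Its adjusted p in limma was 0.15, and 0.057 with the block. Slc14a2, the urea carrier UT-A of the thin limb and the inner medullary collecting duct, had 0.78, 0.43 and 0.32 in mutant samples, and 0.06, -0.16 and 0.03 in wildtype samples. These groups did not overlap either (difference 0.53 ± 0.14, SE), and another Slc14a2 probe gave 0.56. Slc5a3, the carrier of the osmolyte inositol, and Slc41a3, a magnesium carrier, had differences of 0.09 each with overlapping groups, and another Slc5a3 probe gave -0.17.

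Housekeeping carriers served as the comparison. The 5 lists together held 120 measured genes with a median difference of 0.06, with 47 negative and 73 positive. Of these 120, 0 were lower and 4 higher at an unadjusted p under 0.05, against 2.78% lower and 4.46% higher over all genes. The groups did not overlap for 2 lower and 15 higher, against 5.95% and 8.72% over all genes. The tubule carriers together (53 genes, both tubule lists) had a median of -0.44, so the medians of tubule and housekeeping carriers differed by -0.50, and by -0.39 over genes above background in both groups. Without the mean of wildtype pools 3 and 4 this distance was -0.22. The small positive median of the housekeeping carriers is not a direction to rely on, since it was -0.10 when arrays were centred on spike-in controls, a scaling under which all genes had a median of -0.15, and 0.00 without wildtype pool 2.

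**Figure D3:**
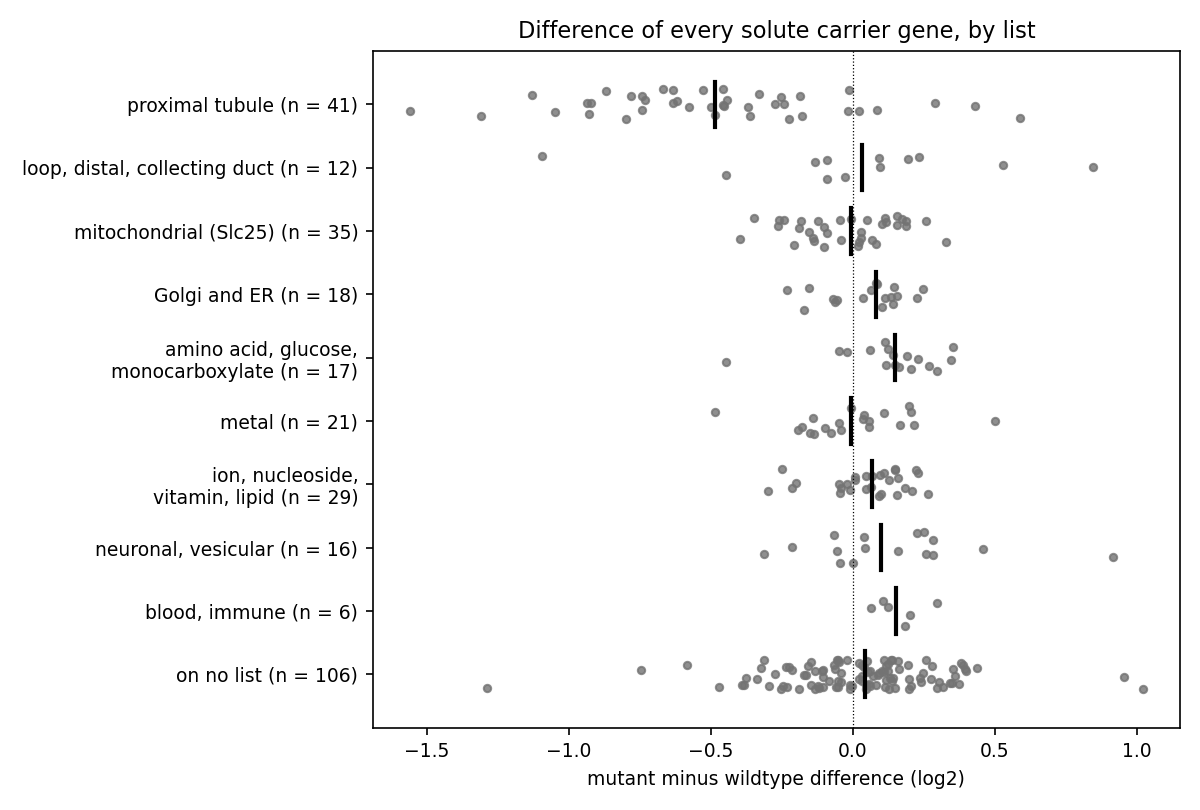
Each point is the mutant minus wildtype log2 difference of 1 solute carrier gene, in 10 rows by role, and black bars are row medians. The proximal tubule row is centred at -0.49 and reaches -1.56, while the 5 housekeeping rows lie between -0.48 and 0.50 with medians from -0.01 to 0.15.

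Mitochondrial carriers of family 25, which exchange metabolites across the inner membrane, had a median of -0.01 over 35 genes, with 18 negative and 17 positive. Slc25a3, the phosphate carrier, had -0.13, 0.07 and 0.02 in mutant samples, against 0.12, 0.11 and 0.21 in wildtype samples. These groups did not overlap, but the difference of -0.16 ± 0.10 (SE) was 0.02 when Cy5 alone was used. The ADP/ATP carriers Slc25a4 and Slc25a5 had differences of -0.18 and -0.21 with overlapping groups. Slc25a39, a carrier of glutathione, had -1.07, 0.39 and 0.50 in mutant samples, and 0.11, 0.30 and 0.46 in wildtype samples. Its only low sample was mutant pool 1, and without it the difference of -0.35 became 0.16. Slc25a43, a carrier of the same family, had -0.69, -0.03 and 0.01 in mutant samples, and -0.07, 0.52 and 0.03 in wildtype samples, with mutant pool 1 low and wildtype pool 2 high. Its probe was above background on 2 of 4 mutant and 3 of 4 wildtype arrays.

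Mutant pool 1 stood apart for several other housekeeping carriers. Slc38a2, the glutamine carrier SNAT2, had -1.54, 0.12 and 0.11 in mutant samples, and -0.24, 0.13 and 0.14 in wildtype samples. Without mutant pool 1 its difference of -0.44 turned to 0.11. Slc39a10, a zinc importer, had -1.69, 0.46 and 0.29 in mutant samples, against -0.17, 0.40 and 0.28 in wildtype samples. In the other direction Slc35d1, which brings UDP-sugars into the endoplasmic reticulum, had 1.14, -0.68 and -0.53 in mutant samples, against 0.18, -0.62 and -0.36 in wildtype samples. Without mutant pool 1 the differences of Slc39a10 and Slc35d1 likewise changed sign, to 0.21 and -0.33. In these 3 genes the other mutant samples lay close to the wildtype samples of the same number.

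Golgi and endoplasmic reticulum carriers, which supply sugar nucleotides for glycosylation, had a median of 0.08 over 18 genes. None passed an unadjusted p of 0.05 in limma, against 2.78% lower and 4.46% higher over all genes. Slc35b1, Slc35b4 and the GDP-fucose carrier Slc35c1 had differences of 0.13, -0.23 and 0.23, all with overlapping groups. Ion, nucleoside, vitamin and lipid carriers had a median of 0.07 over 29 genes. Slc26a11, a sulfate and chloride carrier, had 0.60, 0.37 and 0.52 in mutant samples, and 0.22, 0.12 and 0.34 in wildtype samples, with no overlap (0.26 ± 0.11, SE). Slc19a1, the reduced folate carrier, had -0.74, -0.30 and -0.21 in mutant samples, against -0.12, -0.20 and -0.04 in wildtype samples, also with no overlap (-0.30 ± 0.15, SE). The other Slc19a1 probe gave a difference of 0.01, and without mutant pool 1 the difference was -0.14. The salt carrier Slc12a2 and the phosphate carrier Slc20a1 had differences of 0.10 and 0.09.

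Amino acid, glucose and monocarboxylate carriers of most cells had the highest housekeeping median, 0.15 over 17 genes, with 14 positive. Slc7a5, the large neutral amino acid carrier LAT1, had 0.38, -0.19 and -0.20 in mutant samples, against -0.26, -0.43 and -0.37 in wildtype samples. All mutant samples lay above all wildtype samples, by 0.35 ± 0.17 (SE, adjusted p 0.75 in limma). The other Slc7a5 probe gave a difference of 0.05, and without mutant pool 1 the difference was 0.16. Its partner Slc3a2, the heavy chain 4F2hc, had a difference of -0.02 and the glucose carrier Slc2a1 one of 0.12, both with overlapping groups and both of changing sign under another scaling. Slc38a1, a glutamine carrier, was also close to 0, at -0.05.

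Metal carriers had a median of -0.01 over 21 genes. The exception in this list was Slc40a1, the iron exporter ferroportin, with 0.62, 0.49 and 0.34 in mutant samples and -0.07, 0.00 and 0.02 in wildtype samples. The groups did not overlap and the wildtype samples lay within 0.07 of the Cy3 RNA, with a difference of 0.50 ± 0.11 (SE) and an adjusted p of 0.29 in limma. The zinc carriers Slc39a1 and Slc39a7 had differences of 0.20 and 0.06 with overlapping groups.

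Neuronal and vesicular carriers and blood and immune carriers formed lists of their own. Of 29 neuronal and vesicular carriers written, 16 were measured, with a median of 0.10, and 4 were higher and 0 lower at an unadjusted p under 0.05, against 4.46% higher and 2.78% lower over all genes. Slc32a1, the vesicular carrier of GABA and glycine, had 1.32, 0.89 and 1.00 in mutant samples, against 0.15, 0.30 and 0.01 in wildtype samples. The gap between the groups was larger than either group's range, with a difference of 0.91 ± 0.14 (SE) and an adjusted p of 0.15 in limma and 0.089 with the block. Another Slc32a1 probe, however, gave a difference of 0.04, so the 2 probes disagree. Slc6a9, the glycine carrier GlyT1, and Slc30a3, the zinc carrier of synaptic vesicles, were also higher without overlap (0.25 ± 0.10 and 0.46 ± 0.19, SE). The Slc30a3 difference was 0.23 without the mean of mutant pools 3 and 4. Of the 8 blood and immune carriers 6 were measured, and all 6 had positive differences, from 0.06 to 0.29, of which the lower ones are smaller than the shift of all genes to -0.15 under spike-in centring, where Slc25a37 was at -0.03, and Slc4a1 was at -0.05 without the wildtype 2 and mutant 1 arrays. They include the mitochondrial iron carrier Slc25a37 (0.12), the red cell anion exchanger Slc4a1 (0.18), Slc2a6 (0.20) and Slc37a2 (0.29). The groups did not overlap for 1 of the 6, Slc37a2, which was higher, where the background over all genes was 8.72% higher and 5.95% lower. The other Slc37a2 probe gave a difference of -0.11.

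The 106 members on no list had a median of 0.04, with 7 lower and 9 higher at an unadjusted p under 0.05, against 2.78% and 4.46% over all genes. Slc29a4, the monoamine carrier PMAT, had the largest positive difference of the family. Its values were 1.48, 0.88 and 1.09 in mutant samples, against 0.15, 0.20 and 0.03 in wildtype samples. The groups lay far apart, with a difference of 1.02 ± 0.16 (SE) and an adjusted p of 0.15 in limma and 0.086 with the block. Slc38a5, a glutamine carrier, had 1.31, 0.42 and 0.99 in mutant samples, and 0.05, -0.35 and 0.16 in wildtype samples, with no overlap (0.96 ± 0.24, SE). Pool 2 was the lowest sample of both groups for Slc38a5.

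**Figure D4:**
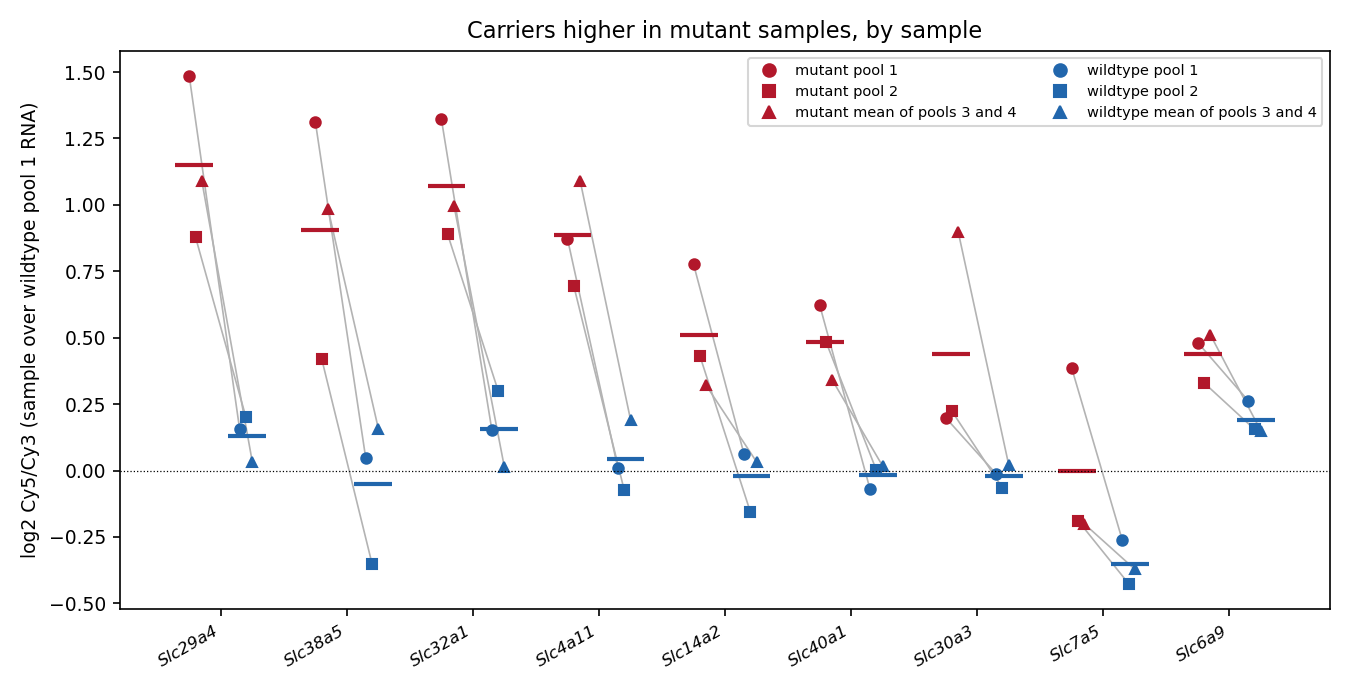
Log2 ratios of Cy5 over Cy3 are plotted for 9 carriers that were higher in mutant samples, mutant (red) left of wildtype (blue). Symbols give the pool number, grey lines join samples of the same number and bars are group means. For all 9 each mutant sample lies above each wildtype sample, and the wildtype samples of Slc29a4, Slc32a1, Slc4a11 and Slc40a1 lie within 0.30 of 0.

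In the other direction Slc39a5, a zinc importer, had -1.36, -1.58 and -0.45 in mutant samples, and -0.17, 0.11 and 0.54 in wildtype samples. The groups did not overlap, and the difference of -1.29 ± 0.31 (SE, adjusted p 0.34 in limma and 0.064 with the block) was close to that of Slc23a3 (-1.31). The brush border scaffold Slc9a3r1, singled out after its values were seen, had a difference of -0.34 ± 0.23 (SE) with overlapping groups, and its relative Slc9a3r2 one of 0.12 ± 0.15 (SE), with -0.13 at another probe.

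The bases before the gene start were compared between the lists, as a feature that the arrays did not use. A RefSeq window of 250 bases was found for 225 of the 301 members, and where a gene had several the one with the most CG dinucleotides was taken. Proximal tubule carriers had a median of 4.5 CG dinucleotides in this window (34 genes, range 0 to 44), close to the 6 of all 27025 RefSeq genes. Housekeeping carriers had a median of 17 (93 genes, range 2 to 43), and the neuronal and vesicular carriers 12.5 (14 genes). The motif CCGCCC, on either strand, lay in 13 of the 34 proximal tubule windows (38.2%) and in 70 of the 93 housekeeping windows (75.3%), against 34.4% of all windows. It lay in 3 of the 5 proximal tubule carriers with a positive difference, Slc7a7, Slc7a8 and Slc6a20a, and in 10 of the 29 with a negative one. A match is a description of these letters and not of a bound site.

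**Figure D5:**
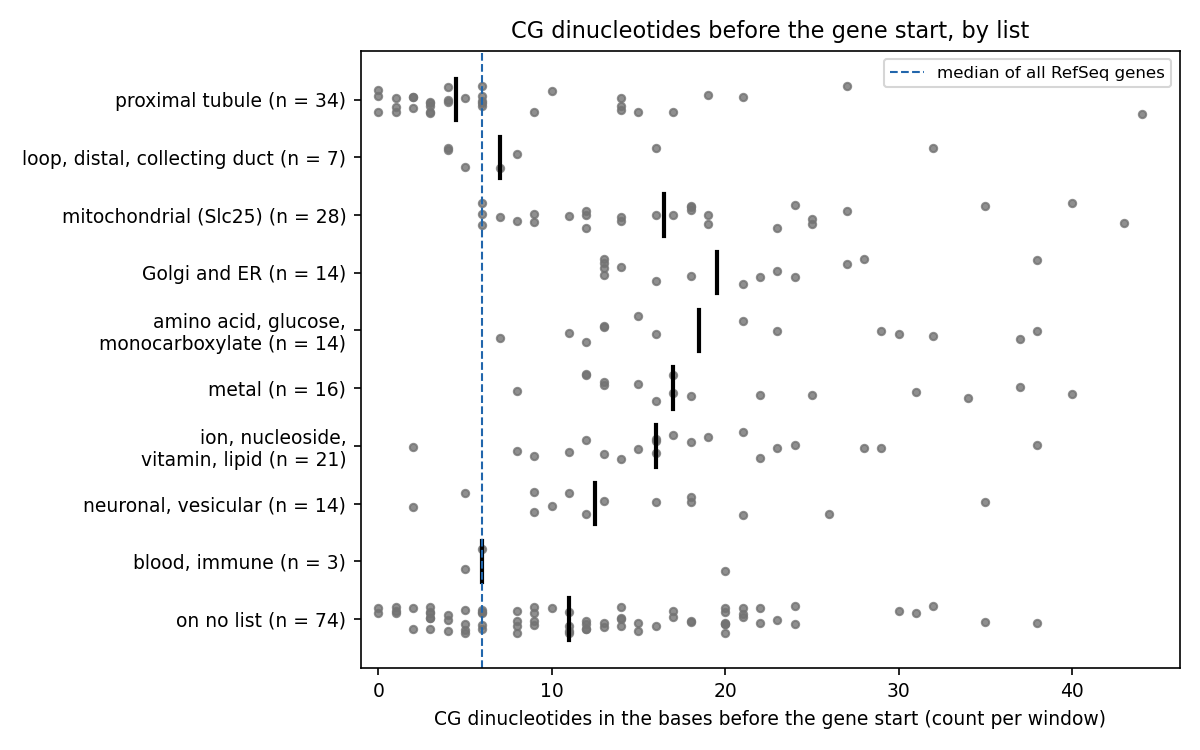
Each point is the number of CG dinucleotides in the window before the start of 1 solute carrier gene, in 10 rows by role, with black bars at row medians and a dashed line at the median of all RefSeq genes. The proximal tubule row has a median of 4.5, and the 5 housekeeping rows have medians from 16 to 19.5.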

How the data were processed

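RNA of 8 pools was read on two-colour Agilent arrays. The authors deposited scanner files with spot intensity values for each dye, made with Agilent Feature Extraction 10.7.3.1 per the submitters' processing notes and the file headers, and a value table of log10 ratios of Cy5 over Cy3. On every array that deposited log10 table came within 0.005 of the scanner file's own log ratio. Median spot intensity values had their background corrected (normexp with an offset of 50, limma 3.58.1, R 4.3.3) and were normalized by loess within arrays and averaged over spots of a probe, with outlier spots left out. Arrays have no read depth, and precision is limited by their number.

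Mutant was compared with wildtype on the log2 scale with two-sided limma tests (lmFit, eBayes), with 3 samples a group and Benjamini-Hochberg adjustment over 22662 genes. Each SE given is that of this fit. Its variance is moderated over all genes, so it does not come from the values of that gene alone. With 3 samples on each side the smallest exact permutation p is 0.1. Pools 3 and 4 of a group were averaged because their Cy5 levels differed by no more than Cy3 levels of the 1 RNA did between arrays (median absolute deviation 0.0674 to 0.148). Of the members, 5 lacked a value in 1 sample and were fitted without it.

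Same-numbered pools deviated together from their group means (r of 0.495, 0.543 and 0.527 over 22328 genes). Other pairs had r of -0.0777 to -0.454. The deviations of a group sum to 0 for each gene, so negative values there follow from the positive ones and are no separate support. The pool number was taken, from these data and not from a label, to pair the samples, and results with the block rest on that choice. All arrays lie on 1 slide from 1 scan, with each group in a row of its own, and the row cannot be told apart from the group.

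Members and lists were chosen with earlier results of these data known. Named are, in the proximal tubule list and in the loop, distal and collecting duct list, the 3 brightest genes and the 3 with the largest absolute difference, in each other list the 2 brightest and the 2 with the largest difference, the 3 largest on no list, and 12 genes fixed by name. That came to 44 members, and others are said to be chosen after their values were seen.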

Additional observations from a re-analysis of the deposited data

How the results depend on the processing

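The comparison was repeated under 26 alternatives, 2 of them (both groups above background, and the wildtype 2 and mutant 1 arrays left out) chosen after seeing the data. Over the 44 named members, 1088 of 1140 gene and setting combinations kept their direction and their side of the threshold, 7 passed it and 45 changed sign. The number of solute carriers that passed was 0 without and with the replicate block. It was 6 with 8 arrays as separate samples, which counts pools 3 and 4 apart (Slc29a4, Slc32a1, Slc37a4, Slc40a1, Slc47a1 and Slc4a11). With 1 sample left out and no block it was 0. With the block and a pair left out it was 0 to 2. The 2 were Slc34a1 (adjusted p 0.0254 in limma) and Slc12a1 (0.0464), in the fit with the block and without the pair of pools 2. The distance between tubule and housekeeping medians was -0.501, and -1.08 with Agilent's processed ratios or the value table, with a range of -0.552 to -0.223 with a sample left out. The proximal tubule median was -0.486, and -1.24 under those same 2 settings, whose ratios carry no offset, -0.734 without the wildtype 2 and mutant 1 arrays, and -0.664 to -0.271 with a sample left out. The housekeeping median was 0.0578, and 0.131 with median centring in place of loess, 0.191 with Cy5 alone, -0.0951 centred on spike-ins, -0.0107 without the wildtype 2 and mutant 1 arrays, and 0.00364 to 0.0834 with a sample left out. Cy5 alone moved the median of all genes to 0.128 and spike-in centring to -0.151, where the loop, distal and collecting duct median was -0.12. Proximal tubule carriers lower at an unadjusted p under 0.05 numbered 13, and 26 with the replicate block, 7 with Cy5 alone, 5 of the 25 above background in both groups (after refitting on those genes), 29 without the wildtype 2 and mutant 1 arrays, and 7 to 30 with a sample left out. The sign of a gene's difference changed as follows, none of them called: Slc20a1 (-0.0618), Slc12a2 (-0.057), Slc25a37 (-0.0307), Slc39a7 (-0.0954), Slc41a3 (-0.0583), Slc5a3 (-0.0601), Slc35b1 (-0.0191), Slc2a1 (-0.0375) centred on spike-ins, Slc38a1 (0.0667), Slc3a2 (0.0991) with median centring, Slc12a2 (-0.0198), Slc25a3 (0.0214), Slc35b4 (0.0436) with Cy5 alone, Slc5a3 (-0.0363) as a mean of all probes, Slc3a2 (0.00123) with Agilent's ratios and (0.00116) with the value table, and Slc25a37 (-0.0919), Slc4a1 (-0.0482), Slc39a7 (-0.0204), Slc39a1 (-0.157), Slc39a10 (0.319), Slc5a3 (-0.215), Slc38a2 (0.166), Slc25a43 (0.00776), Slc25a39 (0.162), Slc35d1 (-0.51) without the wildtype 2 and mutant 1 arrays. With a sample or a pair left out the values of genes whose sign changed ran over Slc25a37 (-0.115 to 0.427), Slc4a1 (-0.00243 to 0.388), Slc39a7 (-0.0116 to 0.117), Slc39a1 (-0.0648 to 0.379), Slc39a10 (-0.871 to 0.206), Slc5a3 (-0.0735 to 0.259), Slc3a2 (-0.0604 to 0.0205), Slc38a2 (-0.721 to 0.106), Slc25a39 (-0.631 to 0.157), Slc35d1 (-0.334 to 0.574). The cause was not tested. With all samples kept, the block changed no call of a solute carrier.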
